A study of Homo sapiens with 4 samples.

Results

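The KMT2 methyltransferases, the acetyltransferases EP300 and CREBBP, the demethylase KDM6A and the methyltransferase NSD1 are 10 genes whose products write or erase marks on histone H3. All 10 were found by gene name among the 29437 genes of the deposited tables. The members were chosen by their log2 fold change between the groups, since KMT2D and EP300 were lower with CCL20 overexpression than coding genes of like mRNA length. That difference is therefore given as a description, without a p-value, and supports nothing about the set. RNA sequencing of polyadenylated RNA covered 4 libraries of CAL27, an established oral squamous carcinoma line of human origin: 2 labelled NC (negative control) and 2 with CCL20 overexpression, called NC 1, NC 2, CCL20 1 and CCL20 2 here. CCL20 is a secreted chemokine, and the overexpressing line was made with a lentivirus per the labels. The sources used here do not give what the control line received, whether a line is a clone or a pool, or whether replicates are separate cultures. P-values below therefore measure only the spread between these libraries, which may be technical.

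Methylation of lysine 4 of histone H3 (H3K4) marks active promoters and enhancers. KMT2A, KMT2B, KMT2C, KMT2D, SETD1A and SETD1B are the catalytic subunits of related complexes that place it. SETD1A and SETD1B serve mainly promoter trimethylation, KMT2C and KMT2D mainly enhancer monomethylation, and KMT2A and KMT2B act at HOX genes and other promoters of development. KDM6A sits in the KMT2C and KMT2D complexes and removes methyl groups from lysine 27 (H3K27). EP300 and CREBBP acetylate H3K27 at enhancers, and NSD1 dimethylates lysine 36 (H3K36). KMT2D, NSD1, EP300 and CREBBP are among the genes known to be mutated in squamous carcinomas of the head and neck.

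Library totals lay between 13681862 and 17860695 reads. Genes with a read numbered 24747 and 24923 under NC against 22378 and 21433 under CCL20. The mRNA length of the gene, averaged over reads, was 3671 and 3606 nt under NC against 2950 and 2747 nt under CCL20. CCL20 itself had 188 and 202 reads under NC against 372 and 303 under CCL20, a log2 fold change of 0.95 (SE 0.21, edgeR adjusted p = 0.0143). After adjustment for mRNA length, described below, it was 0.06 (SE 0.24, edgeR adjusted p = 0.916). Squamous keratinocyte markers summed to 805 and 879.9 FPKM (reads scaled by library total and exonic length) under NC against 802 and 1099 FPKM under CCL20, and 7 of 8 reached a mean of 1 FPKM. Leukocyte markers summed to 1.90 to 2.52 FPKM and fibroblast markers to 2.93 to 5.58 FPKM over the 4 libraries. Endothelial markers, mostly CDH5 with a mean of 6.75 FPKM, summed to 8.80 and 8.23 FPKM under NC against 5.27 and 5.10 FPKM under CCL20. Their part in the results below was not tested. In bulk RNA, fewer cells of a type and less RNA per cell cannot be told apart.

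The difference between groups followed mRNA length across the transcriptome, and each value below stands beside that trend. Across 10572 tested coding genes, not independent of each other, log2 fold change and mRNA length had a Spearman correlation of -0.73. Among the longest 10% of mRNAs, from 6744 nt, the median log2 fold change was -0.73. All 10 genes were longer than the median tested coding mRNA of 2997 nt, and 7 lay among that longest 10%. Their principal mRNAs in GENCODE 29 ran from 5438 nt for KDM6A to 19419 nt for KMT2D. Each gene was set beside the 200 tested coding genes nearest to it in mRNA length, its comparison genes. For the longest genes these are largely shared: KMT2D has 199 in common with KMT2C, 183 with KMT2A and 167 with NSD1. The part of the length trend in the values of single genes was not tested beyond this comparison and the adjusted fits.

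All 10 genes had both CCL20 values below both NC values in FPKM, as did 46.9% of all 12168 tested genes. Together they took 0.0837% and 0.0773% of all reads under NC against 0.0309% and 0.0289% under CCL20. In edgeR's quasi-likelihood fit, counts were scaled by TMM factors, which offset differences in composition. There 8 of the 10 were past an adjusted p of 0.05 in the lower direction, all but SETD1A and KDM6A. So were 15.7% of all tested genes, but 649 of the 1057 coding genes in the longest 10%. Of the members' own comparison genes, 40% (KDM6A) to 75.5% (NSD1) were called lower. The median log2 fold change was -1.13 over the 10 genes and 0.002 over all tested genes. When the trend with mRNA length was removed from each library, the 10 genes had a median of -0.29, and KMT2D and EP300 were past the threshold, where 3.19% of tested coding genes were. When gene span and GC content were removed too, SETD1B and NSD1 joined them, making 4 of 10, where 11.1% of tested coding genes were. Since the rule used this contrast, nothing is read from these counts or from which genes passed. KMT2D and EP300 were chosen for lying beyond their length class, so their place in the length-adjusted fit was largely set beforehand. Without NC 1 the length-adjusted fit placed neither KMT2D nor EP300 past the threshold, and without NC 2 it placed KMT2D alone there. In those fits the spread comes from the CCL20 pair only.

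**Figure D1:**
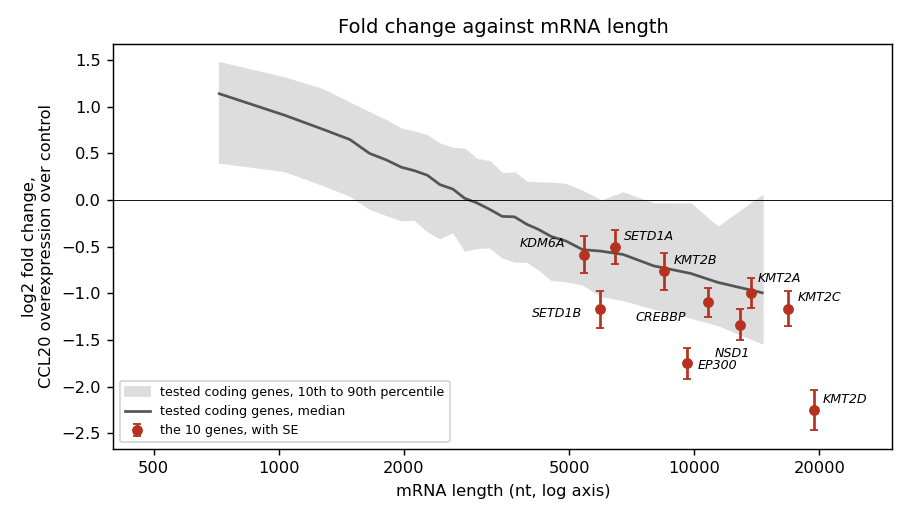
Log2 fold change of CCL20 overexpression over negative control (vertical axis) against mRNA length in nt (horizontal log axis). The line and band are the median and the 10th to 90th percentiles of 10572 tested coding genes in bins of length, and points are the 10 genes with the SE of the edgeR fit. The line and band end at 14580 nt, the middle of the last bin, short of KMT2C and KMT2D. EP300 at -1.75 lies well below the band, and SETD1B at -1.17 lies below its lower edge. KMT2D at -2.25 lies to the right of the band and lower than any part of it.

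The promoters of KMT2D and its paralogue KMT2C are shown because in this pair the paralogues were lower by the most unequal amounts. The sequences are the 250 bases before the RefSeq transcription start in GRCh38.p14, on the gene's strand, with each CG dinucleotide in capitals. KMT2D's window is chr12:49060795-49061044 (minus strand), and KMT2C's is chr7:152436004-152436253 (minus strand).
KMT2D: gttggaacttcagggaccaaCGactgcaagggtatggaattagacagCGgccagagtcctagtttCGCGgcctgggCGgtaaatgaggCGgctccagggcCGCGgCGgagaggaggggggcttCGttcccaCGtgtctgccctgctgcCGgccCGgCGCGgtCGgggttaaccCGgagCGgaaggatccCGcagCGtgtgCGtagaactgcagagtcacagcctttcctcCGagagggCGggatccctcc
KMT2C: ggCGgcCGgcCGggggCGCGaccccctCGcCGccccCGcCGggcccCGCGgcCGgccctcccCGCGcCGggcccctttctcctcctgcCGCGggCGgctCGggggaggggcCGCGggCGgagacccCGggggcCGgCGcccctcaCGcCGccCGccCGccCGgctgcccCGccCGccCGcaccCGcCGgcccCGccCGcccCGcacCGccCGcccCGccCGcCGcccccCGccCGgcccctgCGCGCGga
KMT2D has 23 CG dinucleotides and 65.6% GC in this window, and KMT2C has 48 and 92.0%. The median over 35116 RefSeq starts is 11 CG dinucleotides. RefSeq starts matched 9 of the 10 genes, all but SETD1B, with 19 to 48 CG dinucleotides per window, EP300 having 35 and CREBBP 31. The GC box GGGCGG was found on either strand in 8 of the 9 windows, EP300 being the one without it, and in 42.6% of all windows. The E-box CACGTG was found in KMT2D and KDM6A and in 6.34% of all windows. CCAAT was found in KDM6A alone of the 9 and in 32.0% of all windows. The TATA box TATAAA was found in 0 of the 9 and in 10.7% of all windows. Each motif was counted on its own on both strands, overlaps with another motif included, and a match describes letters, not a bound site. The RefSeq start of KMT2D lies 1020 bases from the GENCODE start, and that of KMT2C 2 bases. Those of EP300 and SETD1A lie 806 and 460 bases inside the GENCODE genes, so the letters counted for these genes lie downstream of the GENCODE start and may be transcribed.

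KMT2D (ENSG00000167548; GRCh38 chromosome 12, 49018975 to 49059774, minus strand) encodes a main H3K4 monomethyltransferase of enhancers. It had 1863 and 1717 reads in NC 1 and NC 2 and 363 and 317 in CCL20 1 and CCL20 2. The deposited levels were 6.65 and 4.69 FPKM against 1.15 and 0.917 FPKM, so the groups were far apart although the NC libraries differed from each other. On the TMM scale the log2 fold change was -2.25 (SE 0.22), a level 4.76-fold lower. Of its 200 comparison genes, with a median of -0.91, 3 were lower still: NFAT5, HSPG2 and USP34, at log2 fold changes of -2.82, -2.45 and -2.38. KMT2D is near the upper end of mRNA lengths, and 10 of its comparison genes were longer. In a narrower window of length around it lay 33 genes with a median of -0.90, and KMT2D was below each of them. Adjusted for mRNA length, its log2 fold change was -1.31 (SE 0.18), or 2.48-fold lower, and with span and GC it was -1.37 (SE 0.21).

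KMT2C (ENSG00000055609; GRCh38 chromosome 7, 152134922 to 152436005, minus strand), the paralogue with the same role, had 1076 and 1395 reads under NC against 548 and 428 under CCL20. These were 3.91 and 3.88 FPKM against 1.77 and 1.26 FPKM, without overlap between groups. The log2 fold change was -1.16 (SE 0.19), and 59 of its 200 comparison genes were lower, so it lay well inside its length class. Parts of KMT2C have near-identical copies elsewhere in the genome, and its counts are uncertain to that extent. The share of KMT2D in the reads of this pair does not depend on how libraries are scaled. It was 63.4% (61.6 to 65.1) in NC 1 and 55.2% (53.4 to 56.9) in NC 2, with 95% Wilson intervals for counting error only, as below. In CCL20 1 it was 39.9% (36.7 to 43.1) and in CCL20 2 42.5% (39.0 to 46.1). KMT2D thus had more reads than KMT2C in both NC libraries and fewer in both CCL20 libraries, and the NC intervals did not overlap each other. KMT2D was chosen by this contrast, so nothing is read from that change.

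EP300 (ENSG00000100393; GRCh38 chromosome 22, 41091786 to 41180079, plus strand) encodes p300, which acetylates H3K27 and is a coactivator of many transcription factors. It had 1495 and 1834 reads in NC 1 and NC 2 and 440 and 439 in CCL20 1 and CCL20 2. Its levels were 8.74 and 8.21 FPKM against 2.29 and 2.08 FPKM, close within groups and far apart between them. The log2 fold change was -1.75 (SE 0.16), a level 3.37-fold lower. Of its 200 comparison genes, with a median of -0.77, 4 were lower: BCL9L (-2.80), ITPR3 (-2.12), MICAL3 (-1.97) and MYO18A (-1.82). Adjusted for mRNA length, EP300 was at -1.004 (SE 0.16), or 2.01-fold lower.

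CREBBP (ENSG00000005339; GRCh38 chromosome 16, 3725054 to 3880726, minus strand), the paralogue of EP300 with the same enzymatic activity, had 1422 and 1883 reads under NC against 656 and 710 under CCL20. Its levels were 6.71 and 6.81 FPKM against 2.76 and 2.72 FPKM, again close within groups. Its log2 fold change was -1.10 (SE 0.16), with 48 of 200 comparison genes lower (79 without CCL20 1), and -0.31 (SE 0.17) when adjusted for mRNA length. EP300 took 51.2% (49.4 to 53.1) of the reads of the pair in NC 1 and 49.3% (47.7 to 51.0) in NC 2. In CCL20 1 it took 40.1% (37.3 to 43.1) and in CCL20 2 38.2% (35.4 to 41.0). The NC intervals overlapped each other and lay above both CCL20 intervals. These intervals leave out the spread between replicates, and EP300 was chosen by this contrast, so nothing is read from that separation. The principal mRNAs have 9587 nt for EP300 and 10803 nt for CREBBP, and the exonic lengths over all transcripts are 12500 and 15492 nt. The part of length in the shares was not tested.

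**Figure D2:**
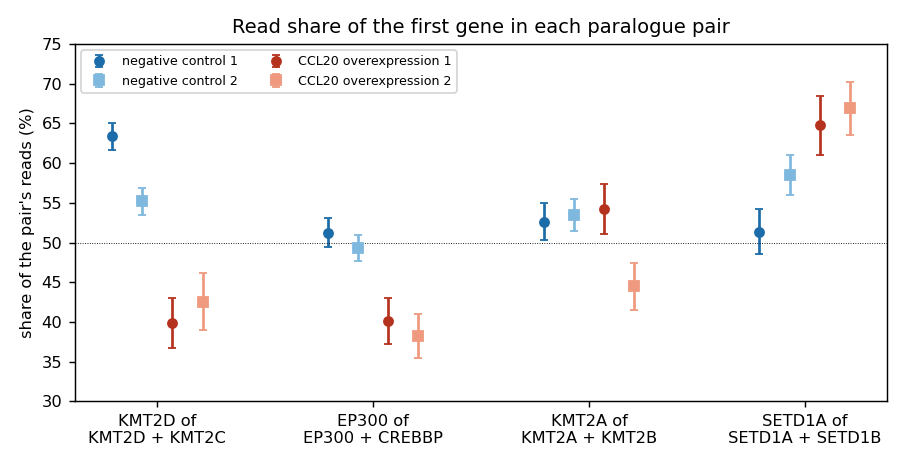
Share of the first gene in the reads of each paralogue pair (vertical axis, percent) in each library, with 95% Wilson intervals for counting error only. KMT2D and EP300 have lower shares in both CCL20 libraries than in both NC libraries, SETD1A has higher ones (64.8% and 67.0%), and the CCL20 libraries lie on either side of the NC libraries for KMT2A.

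KMT2A (ENSG00000118058; GRCh38 chromosome 11, 118436464 to 118526832, plus strand), which maintains HOX gene expression and is rearranged in acute leukaemias, had 964 and 1239 reads under NC against 504 and 474 under CCL20. Its levels were 2.25 and 2.22 FPKM against 1.05 and 0.898 FPKM, and they rest on an exonic length of 31305 nt over all transcripts where the principal mRNA has 13678 nt. Of its exonic bases 18.9% are shared with the overlapping noncoding genes AP001267.3 and AP001267.5, which makes reads there uncertain. The log2 fold change was -0.997 (SE 0.17), near its comparison median of -0.91, with 80 of 200 lower.

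KMT2B (ENSG00000272333; GRCh38 chromosome 19, 35718019 to 35738878, plus strand), the paralogue of KMT2A, had 867 and 1076 reads under NC against 425 and 592 under CCL20. These were 6.16 and 5.86 FPKM against 2.69 and 3.41 FPKM. For KMT2B the log2 fold change was -0.76 (SE 0.20), with 86 of 200 comparison genes lower, or 44 without CCL20 2. Adjusted for mRNA length, KMT2A was at -0.15 (SE 0.16) and KMT2B at -0.05 (SE 0.22), each within its SE of 0. KMT2A took 52.6% (50.4 to 54.9) and 53.5% (51.5 to 55.5) of the reads of the pair under NC. It took 54.2% (51.0 to 57.4) in CCL20 1 and 44.5% (41.5 to 47.5) in CCL20 2, so the CCL20 libraries disagreed.

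SETD1B (ENSG00000139718; GRCh38 chromosome 12, 121804180 to 121832584, plus strand), which trimethylates H3K4 at promoters, had 562 and 609 reads under NC against 220 and 245 under CCL20. Its levels were 4.94 and 4.10 FPKM against 1.72 and 1.75 FPKM, with more spread between the NC libraries than between the CCL20 libraries. It had a log2 fold change of -1.17 (SE 0.19), and 12 of 200 comparison genes, with a median of -0.55, were lower, or 31 of 200 without CCL20 1. Of the 10 genes it was the farthest below its length class after KMT2D and EP300. Adjusted for mRNA length it was at -0.64 (SE 0.19).

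SETD1A (ENSG00000099381; GRCh38 chromosome 16, 30957294 to 30984664, plus strand), the paralogue of SETD1B, had 594 and 859 reads under NC against 405 and 497 under CCL20. These were 6.35 and 7.04 FPKM against 3.86 and 4.31 FPKM. SETD1A had the smallest difference of the 10, a log2 fold change of -0.50 (SE 0.19) with 116 of 200 comparison genes lower (73 without CCL20 2), and 0.07 (SE 0.20) when adjusted for mRNA length. It took 51.4% (48.5 to 54.3) of the reads of the pair in NC 1 and 58.5% (56.0 to 61.0) in NC 2. In CCL20 1 it took 64.8% (61.0 to 68.4) and in CCL20 2 67.0% (63.5 to 70.3), above both NC values. The NC 2 interval, up to 61.01%, overlapped that of CCL20 1, from 60.98%, and the NC intervals did not overlap each other. The rule used this contrast, so nothing is read from that change. The principal mRNAs have 6451 nt for SETD1A and 5935 nt for SETD1B, with a GC content of 62.3% and 64.7%. Their exonic lengths over all transcripts are 6832 and 8314 nt. The part of length or GC content in the shares was not tested.

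NSD1 (ENSG00000165671; GRCh38 chromosome 5, 177133025 to 177300215, plus strand), the H3K36 methyltransferase, had the most reads of the 10: 2053 and 2481 reads under NC against 752 and 847 under CCL20. Its levels were 9.69 and 8.97 FPKM against 3.16 and 3.24 FPKM, without overlap. The log2 fold change of NSD1 was -1.34 (SE 0.17), with 29 of 200 comparison genes lower, and -0.49 (SE 0.17) when adjusted for mRNA length. Without CCL20 1 the number lower was 58, and without CCL20 2 it was 15. KDM6A (ENSG00000147050; GRCh38 chromosome X, 44873177 to 45112602, plus strand), the H3K27 demethylase, had 556 and 720 reads under NC against 426 and 327 under CCL20. Its levels of 5.69 and 5.65 FPKM against 3.89 and 2.72 FPKM differed more between the CCL20 libraries than between the NC libraries. KDM6A had a log2 fold change of -0.58 (SE 0.20), with 85 of 200 comparison genes lower, and -0.12 (SE 0.17) when adjusted for mRNA length.

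Each library was also set against its own genes of like length. For KMT2D, the log2 change from the NC mean minus the median of the 200 comparison genes was -1.31 in CCL20 1 and -1.35 in CCL20 2, and 0.19 and -0.19 in NC 1 and NC 2. For EP300 it was -1.07 and -0.90 in the CCL20 libraries, and for SETD1B -0.79 and -0.42. NSD1 stood at -0.59 and -0.27, CREBBP at -0.46 and -0.12, and KMT2C at -0.17 and -0.37. KMT2A, at -0.121 and -0.062 against -0.052 and 0.052 in NC 1 and NC 2, was close to its length class. For KMT2B (-0.39 and 0.19), SETD1A (-0.15 and 0.33) and KDM6A (0.06 and -0.24) the CCL20 libraries fell on opposite sides of their length class. In 7 of the 10 genes both CCL20 libraries were below both NC libraries on this measure, as were those of 26.9% of tested coding genes set against their own like-length genes. The rule used this contrast, so nothing is read from the count.

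**Figure D3:**
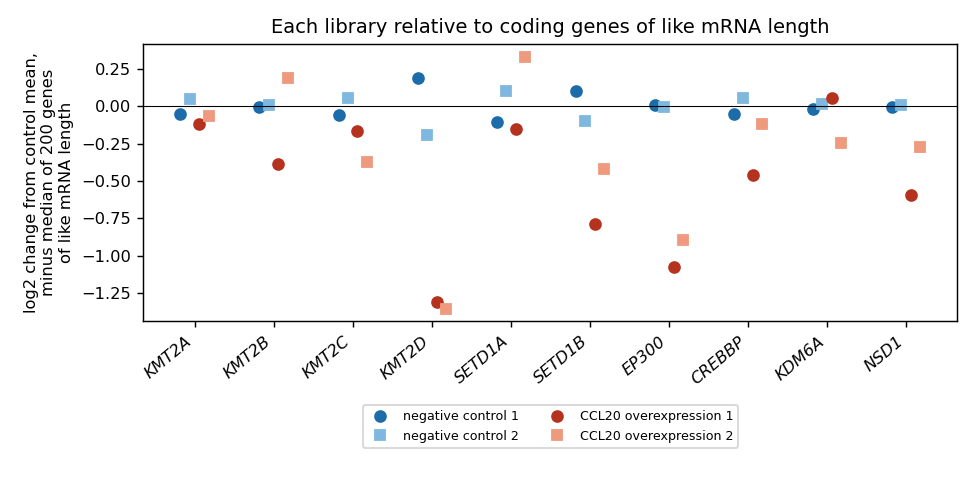
Log2 change of each gene from its NC mean minus the median of that change over 200 coding genes of like mRNA length (vertical axis), in each library. KMT2D and EP300 lie between -1.35 and -0.90 in both CCL20 libraries, and KMT2B, SETD1A and KDM6A have CCL20 points on both sides of 0.

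Levels were compared between genes as TMM-scaled counts (CPM) per kb of principal mRNA, because exonic lengths behind FPKM exceed the mRNA by unequal amounts. Under NC, NSD1 (10.5 ± 0.54; SD, n = 2, as for the values that follow) and EP300 (10.4 ± 0.42) were highest and overlapped, and CREBBP came next (9.12 ± 0.13). KDM6A (7.01 ± 0.013), KMT2B (6.87 ± 0.22), SETD1A (6.68 ± 0.51), SETD1B (5.96 ± 0.76) and KMT2D (5.63 ± 1.35) followed, each overlapping its neighbours. KMT2A (4.81 ± 0.035) lay inside the range of KMT2D, and KMT2C (4.38 ± 0.0048) was lowest. Under CCL20, SETD1A (4.71 ± 0.61), KDM6A (4.68 ± 0.94), CREBBP (4.26 ± 0.17), NSD1 (4.18 ± 0.29) and KMT2B (4.04 ± 0.88) were highest and overlapped. EP300 (3.09 ± 0.052), SETD1B (2.64 ± 0.16), KMT2A (2.41 ± 0.14) and KMT2C (1.95 ± 0.37) came below them. KMT2D (1.18 ± 0.13) was lowest, with both its values under every value of the other 9 genes. Of the reads of the 6 H3K4 methyltransferases, KMT2D held 31.4% and 24.9% under NC against 14.7% and 12.4% under CCL20. These levels and shares are not adjusted for the trend with mRNA length, and KMT2D has the longest mRNA of the 10. It was chosen by this contrast, so nothing is read from its rank or share under CCL20.

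**Figure D4:**
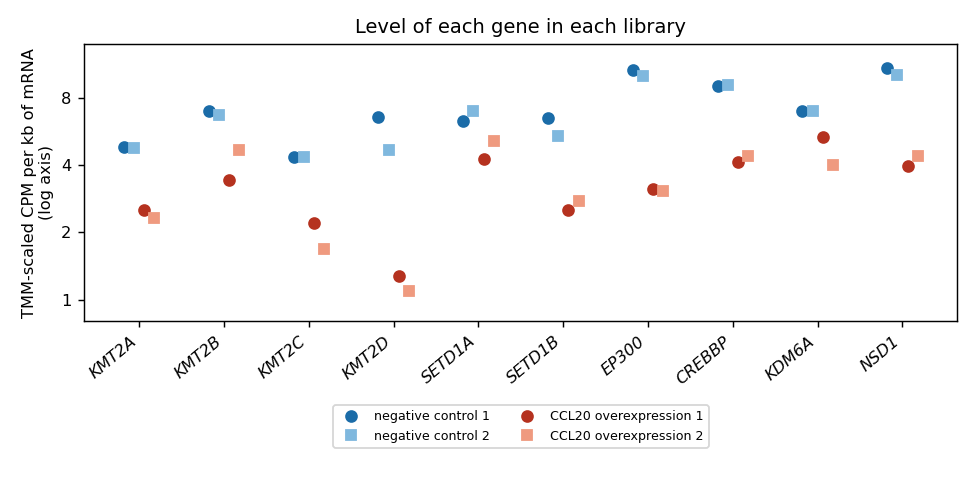
Level of the 10 genes in each library as TMM-scaled CPM per kb of mRNA (vertical log axis). KMT2D goes from 6.58 and 4.67 under NC to 1.27 and 1.09 under CCL20, the lowest points in the plot.

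Between NC 1 and NC 2, KMT2D and SETD1B differed most, by -0.49 and -0.26 on the log2 scale (NC 2 minus NC 1). Between CCL20 1 and CCL20 2 the largest differences were 0.45 for KMT2B and -0.41 for KDM6A (CCL20 2 minus CCL20 1), and KMT2D differed by -0.23.

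The coding genes whose profiles over the 4 libraries were nearest to KMT2D were SHPRH, SLC2A12 and PKD1, at Euclidean distances of 0.24, 0.29 and 0.31 in log2 units around each gene's mean. SHPRH had 1.92 and 1.53 FPKM against 0.354 and 0.239 FPKM, and passed the filter of a mean of 1 FPKM only through NC. Nearest to EP300 were CNOT1, TRAPPC10 and CERS6, at 0.09, 0.10 and 0.13. CNOT1, the scaffold of the CCR4-NOT deadenylase, had 30.2 and 30.8 FPKM against 8.37 and 7.70 FPKM. Among the other 9 genes EP300 was nearest to KMT2D, at rank 33 of 10571, and NSD1 was nearest to EP300, at rank 80. These profiles hold the contrast by which KMT2D and EP300 were chosen, so nothing is read from their closeness.

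Of 101 further genes of these chromatin pathways, listed by role, 91 were tested. With CCL20 39 were lower and 7 higher at an edgeR adjusted p under 0.05, against 15.7% and 16.5% of all tested genes. Their median log2 fold change was -0.51. Counts for single lists below stand beside these shares. For lists of long mRNAs they also stand beside the 649 of 1057 coding genes called lower in the longest 10%. Of 65 with mRNAs over 2997 nt 38 were lower and 1 higher, and of 26 others 1 was lower and 6 higher. With mRNA length, span and GC content removed, 16 were lower and 9 higher, against 11.1% and 13.9% of tested coding genes. Those called included DPY30, BOD1L1, ASH1L, KDM5C, KDM6B, EHMT2, SUV39H1, NCOA2 and BRD3, named below and not called in the length-adjusted fit. In the length-adjusted fit 5 were lower (PAXIP1, KDM1B, KAT6A, NCOA3 and SMARCC2) and 2 higher (PHF19 and HDAC2), against 3.19% and 3.63% of tested coding genes. Folds below are edgeR's, on the TMM scale, so they differ from a ratio of the FPKM values printed beside them, where library totals set the scale. KDM1B and HDAC2 are named after their values were seen. When NC 1 or NC 2 was left out of that fit, SMARCC2 was the one called. Without adjustment, leaving out NC 1 or NC 2 left 8 and 10 calls.

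Among the 4 core subunits that the H3K4 methyltransferase complexes share, 1 was higher and 1 lower. DPY30, at 12.7 ± 1.42 FPKM under NC and 25.4 ± 1.51 FPKM under CCL20, rose (log2 fold change 1.21, SE 0.18, edgeR adjusted p = 0.00477), on an mRNA of 669 nt. RBBP5, at 13.2 ± 0.48 FPKM under NC and 7.86 ± 0.74 FPKM under CCL20, fell (log2 fold change -0.54, edgeR adjusted p = 0.0383, or 0.0982 without a filter on low genes). In the length-adjusted fit their edgeR adjusted p were 0.403 and 0.462, and with span and GC content removed too they were 0.0178 and 0.112. Of 11 subunits found in some of the complexes, 5 were lower and 1 higher. BOD1L1, of the SETD1 complexes, and HCFC1, a cofactor of several complexes, fell 2.41- and 1.85-fold (edgeR adjusted p = 0.00520 and 0.00747, length-adjusted 0.119 and 0.615). PAXIP1, which belongs to the KMT2C and KMT2D complexes, had 3.22 ± 0.075 FPKM under NC and 1.20 ± 0.31 FPKM under CCL20 and fell 2.33-fold on the TMM scale (edgeR adjusted p = 0.00640, length-adjusted 0.0267).

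Of 9 genes listed here under other methyltransferases of H3K4 and H3K36, whose activities were not examined, 6 were lower. Their median mRNA was 7365 nt, and 0 were lower in the length-adjusted fit. ASH1L fell 2.72-fold, KMT2E 1.94-fold and SETD2, which trimethylates H3K36, 1.92-fold (edgeR adjusted p = 0.00509, 0.00658 and 0.00817, length-adjusted 0.0745, 0.212 and 0.403). Of 6 demethylases of H3K4 and H3K27, with a median mRNA of 6372 nt, 5 were lower, and 1 was in the length-adjusted fit. KDM5C and KDM5A, which act on H3K4, fell 2.10- and 1.94-fold, and KDM6B, which like KDM6A acts on H3K27, fell 2.11-fold (edgeR adjusted p = 0.00493, 0.00769 and 0.00588, length-adjusted 0.0989, 0.538 and 0.143).

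Of 11 genes of PRC2, the complex that methylates H3K27, 1 was lower and 1 higher. JARID2 fell 1.81-fold (edgeR adjusted p = 0.0118, length-adjusted 0.250). PHF19 had 4.07 ± 0.13 FPKM under NC and 5.90 ± 1.41 FPKM under CCL20 and rose 1.69-fold on the TMM scale (edgeR adjusted p = 0.0375, length-adjusted 0.0361). Its call ended on library totals and on the TPM scale (edgeR adjusted p = 0.0838 and 0.390) and with limma (adjusted p = 0.115). Of 7 methyltransferases of H3K9 and H3K79, 3 were lower and 1 higher. EHMT2 and DOT1L fell 1.64- and 1.55-fold, and SUV39H1 rose 1.49-fold (edgeR adjusted p = 0.0180, 0.0310 and 0.0468, length-adjusted 0.143, 0.962 and 0.0894). The sign of DOT1L turned in the length-adjusted fit. The call of SUV39H1 ended on library totals and on the TPM scale (edgeR adjusted p = 0.160 and 0.761), with DESeq2 (adjusted p = 0.0625) and with limma (adjusted p = 0.135).

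Among 9 tested acetyltransferases and coactivators other than EP300 and CREBBP, 4 were lower and 1 higher. KAT6A, a MYST family acetyltransferase, had 1.89 ± 0.22 FPKM under NC and 0.549 ± 0.066 FPKM under CCL20 and fell 2.99-fold on the TMM scale (edgeR adjusted p = 0.00433, length-adjusted 0.0250). It passed the filter, a mean of 1 FPKM over the 4 libraries, only through NC. NCOA3, a nuclear receptor coactivator that binds EP300 and CREBBP, had 12.1 ± 0.53 FPKM under NC and 4.01 ± 1.20 FPKM under CCL20 and fell 2.63-fold on the TMM scale (edgeR adjusted p = 0.00477, length-adjusted 0.0188). NCOA2, of the same family as NCOA3, fell 2.33-fold (edgeR adjusted p = 0.00913, length-adjusted 0.157). Of 14 tested deacetylases and corepressors 4 were lower and 1 higher. NCOR1, SIN3A and HDAC4 fell 1.795-, 1.72- and 1.94-fold (edgeR adjusted p = 0.00815, 0.0103 and 0.0256, length-adjusted 0.841, 0.217 and 0.562). With limma HDAC4 was just short of the threshold (adjusted p = 0.0512). At 0.776 FPKM under CCL20, HDAC4 also passed the filter only through NC. HDAC2 had a log2 fold change of 0.33 (edgeR adjusted p = 0.164), and 1.08 in the length-adjusted fit (edgeR adjusted p = 0.00995), which took its mRNA as 9874 nt.

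Of 5 tested readers of acetylation and regulators of EP300 and CREBBP, 2 were lower and 1 higher. BRD3, a reader of acetylated histones, fell 2.13-fold, and CITED4, which binds EP300 and CREBBP, rose 2.25-fold (edgeR adjusted p = 0.00871 and 0.00640, length-adjusted 0.0986 and 0.166). Of 11 tested SWI/SNF remodeler subunits, with a median mRNA of 5728 nt, 8 were lower, and 1 was in the length-adjusted fit. SMARCC2 had 9.03 ± 0.36 FPKM under NC and 2.40 ± 0.13 FPKM under CCL20 and fell 3.26-fold on the TMM scale (edgeR adjusted p = 0.00433, length-adjusted 0.00787). ARID1B and ARID1A fell 2.13- and 1.799-fold (edgeR adjusted p = 0.00509 and 0.00917, length-adjusted 0.151 and 0.686). At 0.601 FPKM under CCL20, ARID1B passed the filter of a mean of 1 FPKM only through NC. Of 8 known targets of KMT2A and menin 4 were tested. On all 4 libraries edgeR called 0 of them, with 0 at an unadjusted p under 0.05, 0 by DESeq2 and 0 by limma. This did not hold in each fit with a CCL20 library left out. CDKN1B, a cell cycle inhibitor and the highest of them, was measured at 14.7 ± 1.28 FPKM under NC and 13.9 ± 3.97 FPKM under CCL20.

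**Figure D5:**
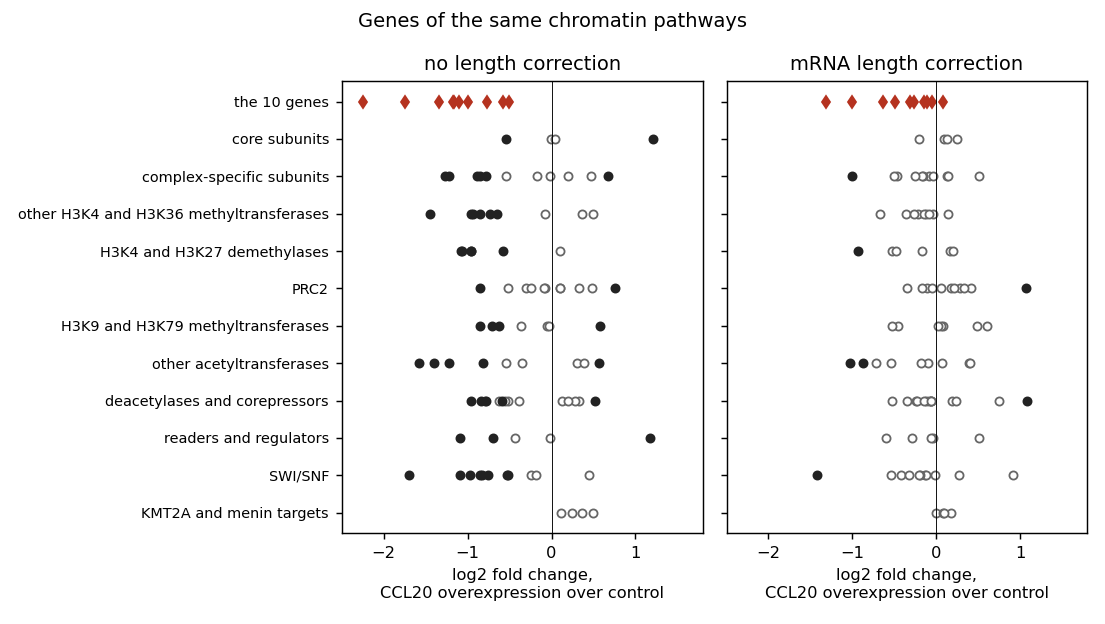
Log2 fold change of CCL20 overexpression over negative control (horizontal axis), without correction on the left and with the mRNA length correction on the right. Diamonds are the 10 genes, with calls not marked. Circles are 91 tested genes of the same pathways by role, filled where the edgeR adjusted p is under 0.05. On the left 39 circles are filled below 0 and 7 above, and on the right 5 and 2.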

How the data were processed

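RNA from 4 CAL27 libraries was sequenced; cells were harvested after 48 hours and 1.5 µg of RNA was used, per the labels. HISAT2, HTSeq 0.13.5 and GRCh38 stand in the submitters' processing notes; the sources used here give no annotation or strand setting, so antisense partners cannot be told apart. Counts, as deposited, are whole reads for each gene. FPKM values, also as deposited by the authors, are those counts scaled by gene length and library total (implied lengths whole within 1.07e-09 nt).

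edgeR 4.0.16 (R 4.3.3; glmQLFit, glmQLFTest, TMM, two-sided, Benjamini-Hochberg, threshold 0.05) was fitted to the 12168 genes whose mean FPKM reached 1. That mean is over all 4 libraries. KMT2A, KAT6A, HDAC4, ARID1B, SHPRH and SLC2A12 had a mean under 1 FPKM with CCL20 and passed through NC. Without a filter edgeR still called KMT2A, KAT6A, HDAC4 and ARID1B. Each SE was derived from the F statistic. The mRNA length correction fits, in each library, a natural spline (5 degrees of freedom) in log2 mRNA length to coding genes' deviations in log2 CPM (prior count 2) and enters it as an offset. Library values used log2(CPM + 0.01). limma 3.58.1, DESeq2 1.42.0, other scalings, no filter, other length measures and left-out libraries were alternatives. All 29437 IDs matched GENCODE 29. Replicates differed by more than sampling noise (chi-square per gene 7.08 for NC, 42.5 for CCL20).

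The members and lists were chosen with earlier results of these data known. Named are the 10 members, up to 3 called genes per list by smallest p (otherwise its highest gene), and the 3 profiles nearest to KMT2D and to EP300. CITED1 was not analysed here, and 1 gene that the rule names is not reported here.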

Additional observations from a re-analysis of the deposited data

How the results depend on the processing

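Calls over all genes, the 10 genes and the 91 other chromatin genes numbered 3915, 8 and 46. Leaving out 1 library gave 650 to 7579, 4 to 10 and 8 to 66, lowest without NC 1 each time. Removing the mRNA length trend gave 721, 2 and 7, the exonic length trend 1404, 4 and 18, and mRNA length, span and GC 2647, 4 and 25. Removing the mRNA length trend with a library left out, chosen after seeing the data, gave 133, 179, 4742 and 3817 (without NC 1, NC 2, CCL20 1 and CCL20 2) over all genes, 0, 1, 5 and 6 among the 10 and 1, 1, 38 and 40 among the others; the 0 was without NC 1, where edgeR gave 2 at an unadjusted p under 0.05 (other tools were not run there). The calls over all genes split into 1275 higher and 2963 lower on library totals, 500 higher and 4516 lower on the TPM scale and 1245 higher and 2608 lower with limma on log2(FPKM + 1), against 2010 higher and 1905 lower. Totals and the TPM scale moved the median of all genes to -0.20 and -0.49.

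The median log2 fold change of the 10 genes, -1.13, was -1.33 on totals, -1.62 on the TPM scale, -0.99 with limma, -1.08 without a filter and -1.12 to -1.07 without 1 library. It was -0.29, -0.23 and -0.42 with the mRNA length, the mRNA length, span and GC, and the exonic length trends removed, and -0.35, -0.23, -0.30 and -0.43 with the first and NC 1, NC 2, CCL20 1 or CCL20 2 left out. The percentage of like-length genes below KMT2D, 1.50%, was 2.50% among genes of FPKM within 2-fold. For EP300, at 2%, it was 3% among the 100 nearest and 0.500% by exonic length, which also moved SETD1A from 58% to 37.5%, KDM6A from 42.5% to 26% and NSD1 from 14.5% to 9.50%.

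Signs turned for 6 named genes. KMT2B was at 0.23 with the mRNA length trend removed and CCL20 1 left out; there DOT1L was at 0.25 and ARID1A at 0.020. SETD1A, not called in the main comparison, was at 0.074 with the mRNA length trend removed, 0.18 there without NC 2 and 0.27 without CCL20 1, and KDM6A, also not called, at 0.012 there without CCL20 2. DOT1L was also at 0.023 (mRNA length), 0.0024 (with span and GC) and 0.10 (mRNA length, without NC 2). CDKN1B, not called in the main comparison, had a log2 fold change of -0.078, -0.36, -0.096, -0.15, -0.057, -0.29, -0.0076 and -0.21 on totals, the TPM scale, limma, without CCL20 1, with span and GC, with exonic length, and with mRNA length without NC 2 and without CCL20 1, and of 0.35 without CCL20 2. The cause was not tested.

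With the replicate number as a block, the 3 counts were 5758, 10 and 58. The difference between replicates 1 and 2 correlated at 0.367 across genes between the groups; with 2 numbers this does not show that they pair the libraries.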
